A study of Mus musculus with 2 samples.

Results

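The ubiquitin and proteasome probes of a mouse glass array were described in primary osteoblasts, the bone-forming cells, with and without TGF-beta1. Members were all probes whose deposited gene name held the word ubiquitin or proteasome and neither ribosomal nor kinase, whatever their signal, which gave 45 of 3757 probes. They comprised 2 probes for ubiquitin or a ubiquitin-like modifier, 5 for activating enzymes, 9 for conjugating enzymes, 3 for ligases, 11 for deubiquitinating enzymes, 10 for subunits of the proteasome core and 5 for its regulatory particle and assembly. The untreated group was 1 culture of primary murine osteoblasts held in alphaMEM with 0.2% FBS, a serum-starved condition that both groups shared. The TGF-beta1 group was 1 such culture given 2 ng/ml TGF-beta1 for 24 h. Strain, age, genotype and the number of animals behind each culture are not given in the labels used here. Each culture was read on 1 array in 1 colour, so there were no replicates, no test was run, and every difference is a difference between these 2 arrays.

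Ubiquitin is a small protein that is joined to other proteins as a tag. An activating enzyme (E1 class) charges it, a conjugating enzyme (E2 class) carries it, a ligase (E3 class) chooses the substrate, and deubiquitinating enzymes take it off again. Chains of ubiquitin bring proteins to the proteasome, a barrel of alpha and beta subunits with its proteolytic sites inside, capped by a regulatory particle whose ATPases unfold the substrate. In TGF-beta signalling, ubiquitin ligases limit receptors and Smad proteins, and in bone the proteasome governs the turnover of osteoblast transcription factors.

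The values were deposited spot intensities in arbitrary units after a normalization named global. A probe was taken as detected on an array when it exceeded 87.4, the authors' signal threshold, which was the brightest lambda phage control signal. The summed signal of the arrays was 427889 untreated and 431093 treated, and 26.5% of all probes were detected on at least 1 array. The spots stood in 48 blocks, whose detected probes had median log2 ratios of treated over untreated from -0.49 to 0.38. Ratios are therefore also given with the median of the other detected probes of the block taken off, called the block adjustment. In the neighbour adjustment the median comes from at least 3 detected spots of the block that lie up to 2 rows and 2 columns away. Of 7 osteoblast markers on the array 6 were detected, Bglap, Col1a2, Sparc and Alpl on both arrays and Ibsp and Cdh11 on the untreated array only. Their list had a summed signal of 3497 untreated and 2923 treated. Of markers of other cells, 4 of 5 for skeletal muscle were detected (sum 1799 and 1490), 1 of 2 for osteoclasts and macrophages (129 and 95.4), 1 of 3 for adipocytes (344 and 371) and 0 of 4 for lymphoid and erythroid cells (161 and 149). The part of these cells in the results was not tested. In such bulk RNA, fewer cells of a type and less RNA per cell cannot be told apart.

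Promoter stretches of 3 members are shown as examples. The members are Psmb5, with nearly equal signals on both arrays, Psmc4, detected on the untreated array only, and Uchl1, which was higher with TGF-beta1. Each stretch is the 250 bases before the gene's start in RefSeq on GRCm38.p6, read 5′ to 3′ on the gene's strand. Capitals mark letters that match 1 of 5 motifs, searched on both strands. They were TGACNNNGC for the antioxidant response element, GTCTAGAC for the palindromic SMAD-binding element, GGGCGG for the GC box, CCAAT and TATAAA.
Psmb5, chr14:54617996-54618245, minus strand: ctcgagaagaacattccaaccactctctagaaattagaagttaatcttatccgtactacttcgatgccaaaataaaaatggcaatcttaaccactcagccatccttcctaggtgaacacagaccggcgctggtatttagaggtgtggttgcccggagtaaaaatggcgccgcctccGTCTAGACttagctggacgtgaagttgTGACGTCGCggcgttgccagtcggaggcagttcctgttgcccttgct
Psmc4, chr7:28050093-28050342, minus strand: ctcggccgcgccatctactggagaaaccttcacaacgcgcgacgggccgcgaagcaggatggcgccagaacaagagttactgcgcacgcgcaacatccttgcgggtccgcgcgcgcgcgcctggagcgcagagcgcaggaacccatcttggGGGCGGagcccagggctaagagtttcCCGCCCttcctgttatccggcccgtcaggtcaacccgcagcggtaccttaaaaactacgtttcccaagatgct
Uchl1, chr5:66675871-66676120, plus strand: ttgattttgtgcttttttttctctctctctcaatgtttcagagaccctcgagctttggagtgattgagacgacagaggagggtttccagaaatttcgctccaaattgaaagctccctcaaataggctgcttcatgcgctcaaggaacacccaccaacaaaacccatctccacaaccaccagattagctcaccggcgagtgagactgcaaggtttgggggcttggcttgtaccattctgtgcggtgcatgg
The Psmb5 stretch held 1 match to GTCTAGAC and 1 to TGACNNNGC, the Psmc4 stretch held 2 to GGGCGG, and the Uchl1 stretch held 0 matches. None of these matches overlapped. Of 45 members, 31 had a promoter in the table. GTCTAGAC stood before 1 of these 31 genes and before 0.200% of 27025 genes, and TGACNNNGC before 7 of 31 and 11.5%. GGGCGG stood before 18 of 31 and 35.4%, CCAAT before 11 of 31 and 37.5%, and TATAAA before 3 of 31 and 14.3%. The GC content of the members' stretches had a median of 58.0%, against 52.4% over all genes. A match describes the letters and does not show binding.

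All 10 members detected on both arrays lay within 1.5-fold, as did 84.7% of all 795 probes detected on both. A count of 0 past 1.5-fold among 10 members is near the share over all probes and is not a result about these genes. At least 1.5-fold, 0 members were higher against a background of 7.17%, and 0 were lower against 8.18%, or 15.3% in both directions together. At least 2-fold, 0 were higher against 1.51%, and 0 were lower against 2.26%, or 3.77% in both directions together. By measured ratio 5 of the 10 were higher and 5 lower with TGF-beta1, against 46.8% lower in the background. With the neighbour adjustment 7 were higher and 2 lower, and 1 had no value, against 45.7% lower in the background under the same adjustment. Their median log2 ratio of treated over untreated was -0.01, from -0.42 to 0.33, and that of all 795 probes was 0.03. A further 6 members, 37.5% of the 16 detected on at least 1 array, were detected on the untreated array only, against 13.0% of all 995 such probes. On the treated array only there were 0, against 7.14%. For these 6 members a treated signal under the threshold enters the measured ratio, their lower direction follows from how they were detected, and a lower bound on the fold is what can be read. Of these 6, 4 lay in 1 block of the array named E1, described after the single genes. The other 29 members were detected on neither array.

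**Figure D1:**
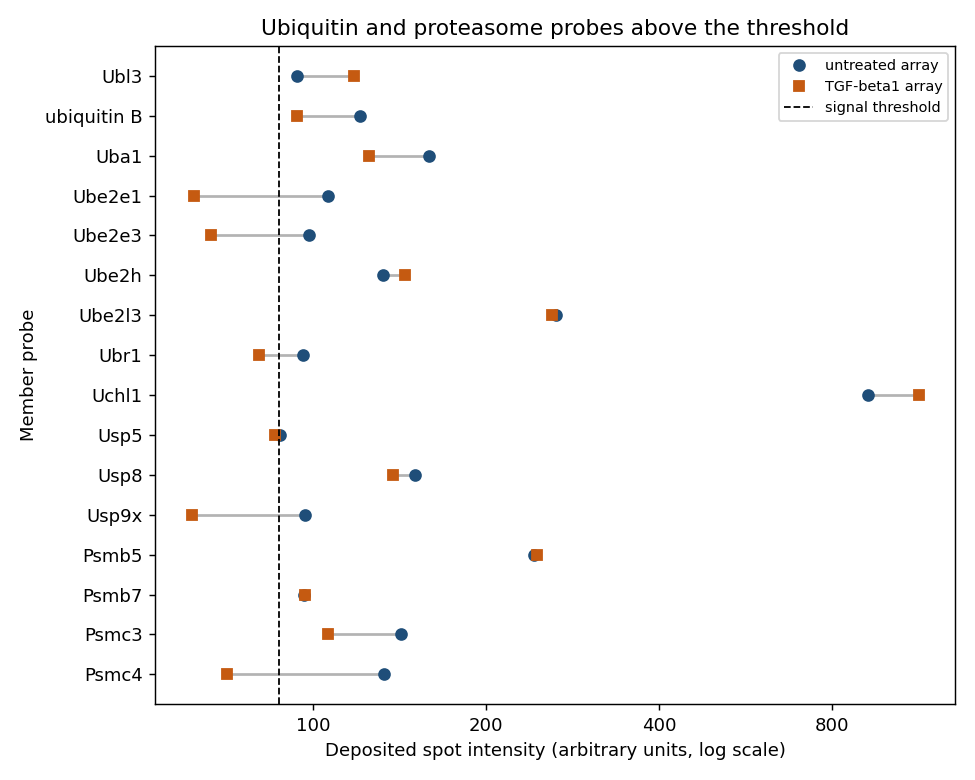
Deposited spot intensity (log scale, arbitrary units) of the 16 members detected on at least 1 array, with 1 untreated (circle) and 1 TGF-beta1 (square) value each and the threshold of 87.4 as a dashed line. The 6 pairs that cross the line all have the treated value below it, and levels of different probes are not comparable.

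The modifiers themselves went in opposite directions. Ubiquitin B, one of the genes that encode ubiquitin as head-to-tail repeats, had 121 untreated and 93.9 treated, which is -0.36 as a log2 ratio. Its repeats resemble those of other ubiquitin genes, and signal shared between them was not separated. The probe was 1 of 9 housekeeping controls printed in 1 row, of which 8 were lower on the treated array, with a median log2 ratio of -0.12, and only beta actin, at -0.39, was lower than ubiquitin B. Ubl3, a membrane-anchored ubiquitin-like protein, went from 93.7 to 118, at 0.33 the highest log2 ratio among members detected on both arrays. Both stayed on their side of 0 under every scaling and position adjustment that gave a value.

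Among the 5 activating enzymes, 1 was detected. Uba1, the enzyme that starts most ubiquitin conjugation, had 160 untreated and 125 treated, 1.27-fold lower. In log2 this was -0.35, or -0.23 with the block adjustment and -0.22 with the neighbour adjustment. The enzymes for related modifiers were under the threshold on both arrays. They were Uba2, with 29.1 and 48.3, and Sae1, with 38.1 and 40.9, which together activate SUMO, and Uba3, with 34.0 and 29.6, which activates NEDD8. The probe named ubiquitin activating enzyme E1, Chr Y 1 had 33.9 and 36.0.

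As deposited, conjugating enzymes gave both steady and lower signals. Ube2l3, a partner of HECT and RBR ligases, had 265 untreated and 261 treated, or -0.02 in log2. Ube2h had 132 and 144, a log2 ratio of 0.13. The closely related Ube2e1 and Ube2e3 were detected on the untreated array only. Ube2e1 had 106 and 62.2, at least 1.21-fold lower, and Ube2e3 had 98.4 and 66.4, at least 1.12-fold lower. These bounds divide the untreated signal by the lowest detected signal on the treated array, 87.6, while the measured log2 ratios were -0.77 and -0.57. All 4 spots stood side by side in block E1, so that neighbours in 1 row differed from each other by up to 0.90 on the log2 scale. With the block adjustment Ube2e1 was at -0.51, Ube2e3 at -0.31, Ube2l3 at 0.30 and Ube2h at 0.44. The neighbour adjustment put them at -0.51, 0.025, 0.54 and 0.37 in that order. The remaining 5 were under the threshold on both arrays. Ube2g2 and Ube2j1, which serve degradation at the endoplasmic reticulum, had 64.6 and 76.4, and 48.8 and 33.4. Ube2d2a had 37.0 and 29.8, and the RAD6 homologue Ube2a had 11.1 and 5.28.

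Of the 3 ligases, Ubr1, which reads destabilizing amino-terminal residues, was detected on the untreated array only. It had 96.0 untreated and 80.5 treated, at least 1.10-fold lower, with a measured log2 ratio of -0.25. The block adjustment turned it to 0.063, and the neighbour adjustment gave -0.13. Ube3a, the HECT ligase of Angelman syndrome, had 35.9 and 35.6, and Rbck1, a subunit of the linear ubiquitin chain assembly complex, had 37.3 and 33.0, all under the threshold.

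Of the 11 deubiquitinating enzymes 4 were detected, and 1 of these was higher with TGF-beta1. This was Uchl1, a hydrolase best known as an abundant protein of neurons, with 924 untreated and 1135 treated, 1.23-fold higher. In log2 this was 0.30, with 0.19 under the block adjustment and 0.052 under the neighbour adjustment. Usp8, which acts on receptors at endosomes, had 151 and 138, a log2 ratio of -0.13. It was at -0.39 with the block adjustment and -0.33 with the neighbour adjustment. Usp9x, which in human cells was described as removing ubiquitin from Smad4, had 97.0 and 61.5 and was at least 1.11-fold lower, and its measured log2 ratio of -0.66 went to -0.40 with the block adjustment and to -0.091 with the neighbour adjustment. Usp5, which takes apart free ubiquitin chains, had 87.6 and 86.0, on either side of the threshold. Its measured log2 ratio of -0.03 went to 0.21 with the block adjustment and to 0.45 with the neighbour adjustment. The other 7 were under the threshold on both arrays, from 11.7 to 66.1. Uchl3 had 66.1 and 48.5, Usp21 had 31.4 and 20.9, and Usp17la, a cytokine-inducible enzyme with near-identical copies in the genome, had 28.1 and 11.7. Usp18, which removes ISG15, had 40.2 and 46.0.

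**Figure D2:**
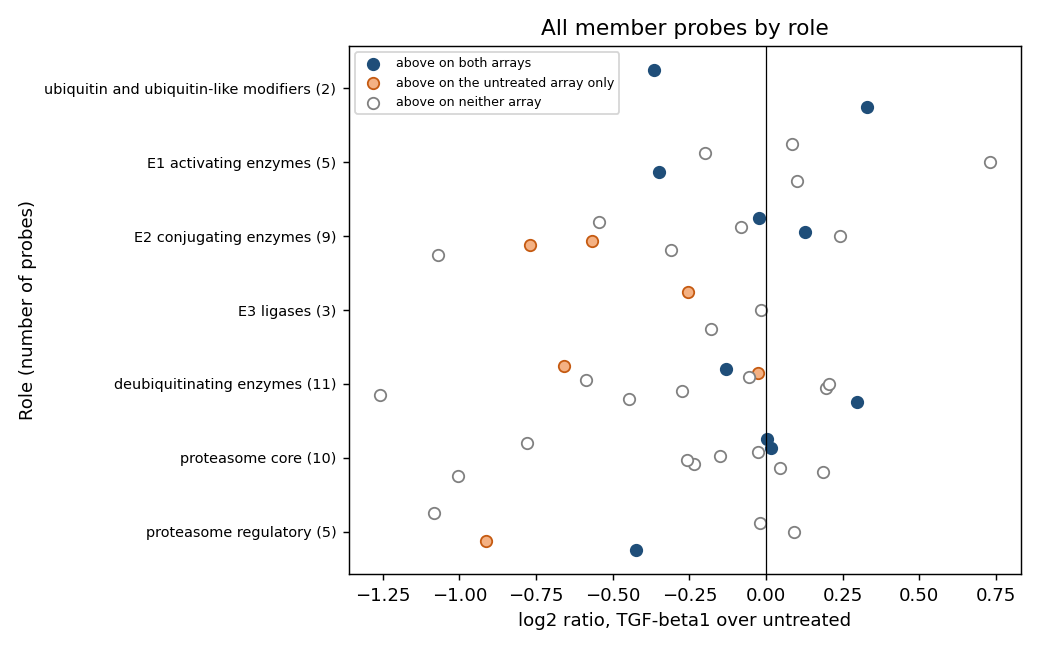
Log2 ratio of treated over untreated intensity for all 45 members by role, filled where detected on both arrays, orange where detected on the untreated array only and open where detected on neither. Members detected on both arrays lie between -0.42 and 0.33, and the ratios below -1 lie among open circles, whose signals did not exceed the threshold.

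Of the 15 proteasome members 4 were detected. In the core, Psmb5, the chymotrypsin-like subunit, had 242 untreated and 245 treated, or 0.02 in log2. Psmb7, the trypsin-like subunit, had 96.7 and 96.9, a log2 ratio of 0.003. In the regulatory particle, the ATPase Psmc3 had 142 and 106, 1.34-fold lower. The ATPase Psmc4 had 133 and 70.8 and was detected on the untreated array only, at least 1.52-fold lower, the highest bound among members. Its measured log2 ratio was -0.91, with -1.09 under the block adjustment and -1.05 under the neighbour adjustment. Psmc3, in block B2, was at -0.42 in log2 as deposited, -0.15 with the block adjustment and 0.34 with the neighbour adjustment.

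The other 11 subunits were under the threshold on both arrays. Block B2 held 4 proteasome subunits side by side, with Psmc3 among them. Psmd4, a ubiquitin receptor of the regulatory particle, had 66.1 and 31.3, Psma2 of the outer ring had 50.6 and 25.2, and Psmb6, the caspase-like subunit, had 41.2 and 24.0. The log2 ratios of these 4 had a median of -0.89, and the median of all 79 probes of block B2 was -0.34, with 66 of them lower. With the block adjustment Psmd4 was at -0.78, Psma2 at -0.71 and Psmb6 at -0.48. In other blocks Psma5 had 47.7 and 54.3, Psma6 had 44.6 and 46.1, Psmd13 had 46.8 and 46.2, and the assembly chaperone Psmd10 had 30.1 and 32.1. Psmb1 had 44.9 and 38.1, Psmb2 had 37.2 and 33.5, Psmb3 had 30.0 and 29.5, and the immunoproteasome subunit Psmb10 had 50.9 and 42.6. Of all 15 subunits 10 were lower, with a median log2 ratio of -0.15, against 61.8% lower and a median of -0.10 over all probes with a ratio. The count was 8 of 15 after quantile normalization, against 46.7% of all probes, and 13 of 15 with the block adjustment, against 65.6%. That adjustment uses detected probes only, while 11 of the 15 subunits were under the threshold. With the median of all probes in the block taken off the count was 9 of 15, against 50.1%. With the neighbour adjustment it was 8 of the 12 that had a value, against 63.0%.

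**Figure D3:**
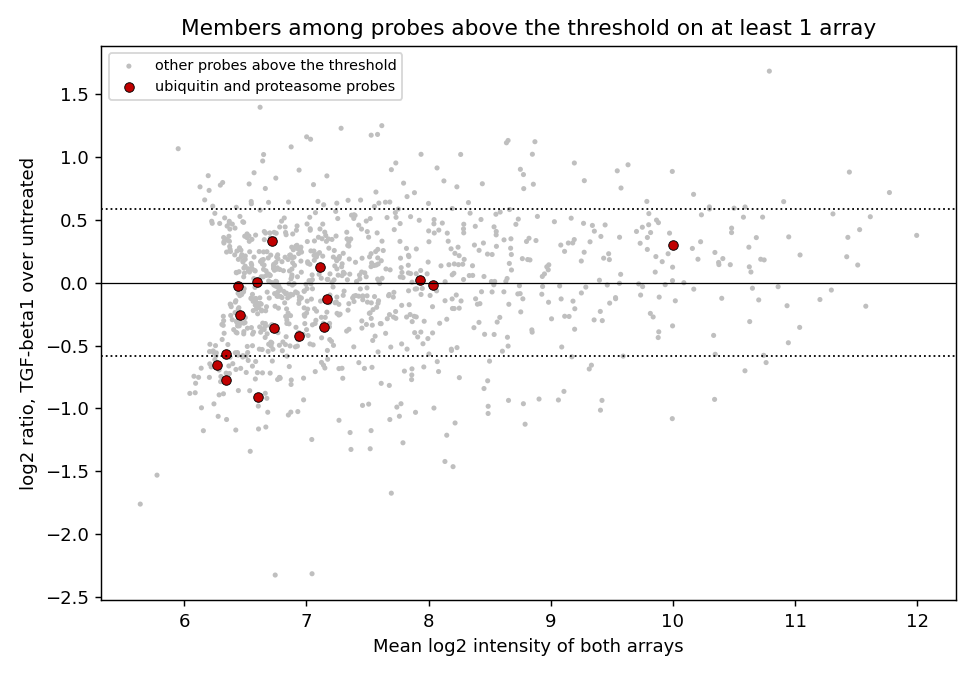
Log2 ratio against mean log2 intensity for the 995 probes detected on at least 1 array, with the 16 members in red and dotted lines at 1.5-fold. The 3 members below the lower line were detected on the untreated array only, and the other 13 lie between the lines.

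Over all 45 members, detected or not, 31 were lower and 14 higher, which is 68.9% lower against 61.8%. After quantile normalization 23 were lower and 22 higher, against 46.7% lower over all probes. With the block adjustment 33 were lower and 12 higher, against 65.6%, and with the median of all probes in the block taken off 25 were lower and 20 higher, against 50.1%. Their median log2 ratio was -0.15 against -0.10 over all probes. Among the 29 members under the threshold on both arrays 20 were lower, or 69.0%, against 65.9% of all such probes. Of these 29, 6 were at least 1.5-fold lower against 16.3%, and 1, Uba2, was at least 1.5-fold higher against 1.81%. The 8 lambda control spots, which define the threshold, themselves had a median log2 ratio of -0.23. Signals under the threshold were no brighter than the brightest of these control signals, so these counts describe spots and not transcripts.

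The untreated-only members were unevenly placed on the array. Each member was read at its own place, so place and gene cannot be told apart, and the part of place was not tested. Block E1 held 6 members, and all 6 were detected, where 37 of the 73 other probes of the block were. Its probes had a median untreated signal of 91.7, against 47.9 over the whole array, and a median treated signal of 69.1, against 45.5. Of the other probes of block E1 detected on at least 1 array, 35.1% were so on the untreated array only. Of the 6 members there, 4 were. Outside this block 2 of 10 detected members, Psmc4 and Usp5, were detected on the untreated array only, or 20.0%. The share for the whole array, block E1 included, was 13.0%. Usp5 had 87.6 and 86.0, on either side of the threshold.

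**Figure D4:**
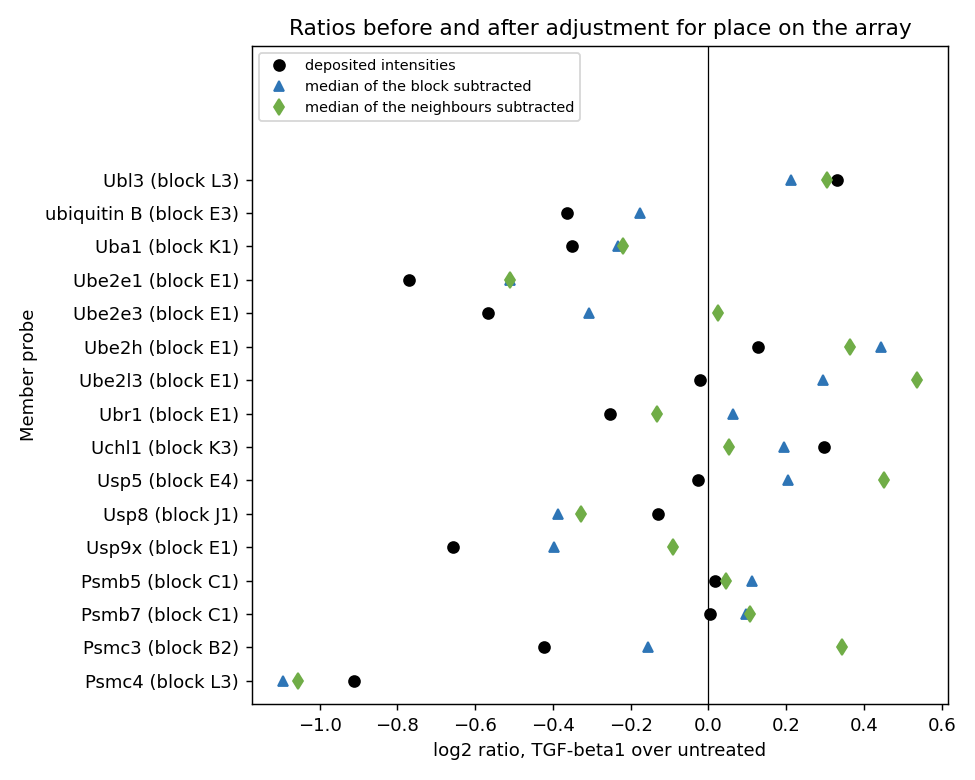
Log2 ratio of the 16 detected members from deposited intensities (circles), with the block adjustment (triangles) and with the neighbour adjustment (diamonds, absent for ubiquitin B, which had 2 detected neighbours). The 6 members detected on the untreated array only, Psmc4, Ube2e1, Ube2e3, Ubr1, Usp9x and Usp5, have a treated signal under the threshold in each form. Psmc3, Ube2e3, Ubr1, Ube2l3 and Usp5 lie on both sides of 0.

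Genes of the system outside the member rule were taken from 6 partial lists, with 46 probes on the array, of which 6 were detected. Of 18 listed ligases and ligase regulators 1 was detected, Siah2, a RING ligase, with 212 untreated and 198 treated. Its log2 ratio of -0.09 went to 0.17 with the block adjustment. Of 11 listed probes for cullin and anaphase-promoting complexes 2 were detected. Anapc7, a subunit of the anaphase-promoting complex, had 177 and 112, 1.58-fold lower, at -0.66 in log2 and -0.51 with the block adjustment. Of 5 listed probes detected on both arrays it was the only 1 at least 1.5-fold apart as deposited, against 15.3% of all probes detected on both. The substrate receptor Fbxo6 was detected on the treated array only, with 84.7 and 90.0. Of 6 listed probes for ubiquitin-like modifiers and their enzymes 2 were detected, the interferon-induced modifier Isg15 with 487 and 523 and the autophagy modifier Gabarap with 215 and 221. With the block adjustment the log2 ratio of Isg15 went from 0.10 to 0.25 and that of Gabarap from 0.04 to -0.21. Vcp, the ATPase that extracts ubiquitinated proteins from complexes and membranes, was the 1 detected of 3 listed shuttle and segregase factors, with 128 and 127. It lay in block E1, and its log2 ratio of -0.01 went to 0.30 with the block adjustment and to 0.61 with the neighbour adjustment. None of 4 listed COP9 signalosome subunits and none of 4 listed further deubiquitinating and antigen processing genes were detected.

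Further genes of the system stood neither among the members nor in those lists, and were picked by their symbols after their values were seen. Of 6 probes with proteasome symbols, whose names in the file are worded or spelled otherwise, 3 were detected, all on both arrays. Psme3, a subunit of the nuclear proteasome activator, went from 1581 to 1798 with TGF-beta1, which is 0.19 in log2. Psme1, a subunit of the interferon-inducible activator, had 544 and 534, or -0.03, and the assembly chaperone Psmg1 had 122 and 146, or 0.25. All 3 lay within 1.5-fold, as did 84.7% of all probes detected on both arrays. The signals of Psme1 and Psme3 stood well above the threshold on both arrays. The other 3 were under the threshold on both arrays, the ATPase Psmc5 with 32.1 and 28.6, and the immunoproteasome subunits Psmb8 with 44.0 and 40.4 and Psmb9 with 28.4 and 34.5.

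Of 11 unlisted probes with RING, TRIM or deltex symbols 5 were detected, 4 of them on both arrays. Dtx1, a deltex ligase of the Notch pathway, had 225 untreated and 140 treated, 1.60-fold lower, at -0.68 in log2, -0.80 with the block adjustment and -0.22 with the neighbour adjustment. Of the 4 detected on both arrays it was the only 1 at least 1.5-fold lower, against 8.18% of all probes detected on both. Trim21, a ligase that binds antibodies inside cells, had 281 and 214, a log2 ratio of -0.39. This ratio went to -0.02 with the block adjustment and to -0.48 with the neighbour adjustment. Rnf112 had 123 and 88.8, or -0.47, and Rnf10 had 104 and 93.0, or -0.17. Znrf4 was detected on the untreated array only, with 118 and 81.6. Of 8 unlisted probes with F-box or SPRY-SOCS symbols 2 were detected. Fbxl12, an F-box substrate receptor, had 761 and 1047, 1.38-fold higher, at 0.46 in log2 and 0.34 with the block adjustment. Spsb2, a substrate receptor of cullin-5 complexes, was detected on the untreated array only, with 92.5 and 59.1. The RING ligase Ttc3, in block E1, had 324 and 293, a log2 ratio of -0.15. This went to 0.17 with the block adjustment and to -0.02 with the neighbour adjustment.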

How the data were processed

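Per the file headers, the study's workbook came from Atlas Iris software, and the array was Atlas Glass Mouse 3.8. The authors deposited spot intensities on a linear scale after a normalization named global, and 3 treated values lay below 0. The authors' deposited ratio is treated over untreated intensity, which the intensities gave back within 0.0001 for 3754 of 3754 ratios. The scanner and the background method are not stated. Per the labels, both samples carried Cy3.

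Of 3774 spots 17 controls without a probe ID were left out. Names and places came from the workbook, joined to probe IDs through the deposited ratio table in the same order with equal ratios. The workbook's 16 columns of per-sample values matched no label and were not used. Symbols came through the accession and a RefSeq table of GRCm38.p6, for 43 of 45 members. Ubiquitin B and the Y-linked activating enzyme keep the file's names. Single values of some probes are not reported here.

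The main value was log2 of treated over untreated intensity with nothing added. Members detected on at least 1 array were named with full values, and other pathway genes by absolute log2 ratio, up to 4 a list. The members and lists were chosen with earlier results of these data known. No test was possible with 1 array per group, and precision is limited by the number of arrays. The 8 lambda control spots, whose brightest signal set the threshold, had a log2 ratio SD of 0.20 and a median of -0.23. This is a spread of control spots on the same 2 arrays, and not an error of member ratios or of cultures. The scripts were tested on simulated data. Python 3.11.15 and statsmodels 0.14.6 were used. Alternatives were quantile, median, total-signal and loess (span 0.4) scaling, an offset of 96.7, the deposited ratio, position adjustments and other filters.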

Additional observations from a re-analysis of the deposited data

How the results depend on the processing

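The median log2 ratio of the 10 members detected on both arrays was -0.01, and no replicate gives the error of such a median. It was -0.02 after division by the total signal, against 0.01 over all probes detected on both arrays. After quantile normalization it was 0.064 against 0.049. After subtraction of block or of neighbour medians it was 0.11, against 0.02 and 0.04. Over members detected on at least 1 array it was -0.19, against -0.008 over all such probes. The 6 members added there are lower by how they were detected. The median was -0.06 without the members in block E1 and 0.02 over the 3 members above 2 times the threshold on both arrays. With the 6 further proteasome probes added, a choice made after the data were seen, it was 0.003. It was 0.30 when the median of all probes in the block was subtracted, an adjustment added after the data were seen, which also shifted the median of all detected probes by 0.13. The count of members at least 1.5-fold apart, 0, stayed 0 under each scaling and position adjustment, and was 3 when members detected on 1 array were included and 10 over all members. At least 2-fold it was 0, and 4 over all members, and those added were under the threshold. The direction of 7 of the 10 members detected on both arrays, 3 lower and 4 higher, held under the scalings and the position adjustments that gave a value. Among these 7, Psmb5 came as near 0 as 0.007. Members whose direction changed were Psmc3, Psmb7 and Ube2l3. The offset of 96.7 and the deposited ratio cannot change a direction and are no check of it. No paired analysis was possible because each group had 1 array. Of the 16 detected members 5 had no signal above 1.2 times the threshold.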
